A study of Mus musculus with 8 samples.

Results

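The trypsin family genes Try4, Try5, Try10, Prss2, Prss3 and 2210010C04Rik were followed across 4 pools of RNA from embryonic mouse pancreas, measured on Affymetrix mouse gene 1.0 ST arrays. A gene was included when a probe set named it and no other gene in the platform annotation, with the brightest probe set standing for it where there were several. All 6 listed genes had exactly 1 such probe set, and they are 6 of the 19938 genes measured this way. The VEGFR2i-labelled pool and the vehicle-labelled pool each held 5 wild type pancreatic buds taken at e12.5 and cultured as explants for 2 days, with an inhibitor of the VEGF receptor VEGFR2 or with its vehicle. The VEGF pool held freshly isolated e12.5 buds of 3 embryos that carried Pdx1-tTA, a tetracycline transactivator driven by the Pdx1 promoter, together with TET-VEGF, the VEGF transgene that it switches on. Buds of 3 littermates with Pdx1-tTA alone made up the control pool, so both fresh pools carried the transactivator. Each pool was hybridized to a first array and to a technical repeat, which gives 8 arrays and no biological replicate of any condition.

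Trypsins are serine proteases that cut proteins after lysine or arginine. Acinar cells of the pancreas make them as inactive trypsinogens, store them in zymogen granules and release them into the gut, where enteropeptidase (Tmprss15) removes a short peptide and so activates them. Active trypsin in turn activates most other pancreatic proenzymes, and acinar cells make the inhibitor Spink1 to restrain trypsin formed too early. In the mouse the trypsinogen genes lie in clusters within the T cell receptor beta locus on chromosome 6. In the RefSeq gene order 2210010C04Rik lay at one edge, before a run of receptor V segments, and Try4, Try5, Try10, Prss3 and Prss2 followed on the far side of those segments. Gm5771, the pseudogene Gm5409, Gm10334 and Prss1 lay between Prss3 and Prss2.

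Promoters of 4 of the 6 genes were in the RefSeq promoter table of GRCm38.p6, each running from 250 bases before to 50 bases after the start of the gene. The promoters of 2210010C04Rik and Prss2 are shown because these genes had the largest and the smallest difference between the explant pools. That of Prss3 is shown because Prss3 was among the 3 genes nearest in pattern to Try5 and to Try10. Capitals mark E-boxes (CANNTG, the core bound by basic helix-loop-helix factors such as Ptf1a), the TGGGAA core bound by RBPJ and RBPJL, and TATAAA, each on either strand.
2210010C04Rik, chr6:41035460-41035759, minus strand: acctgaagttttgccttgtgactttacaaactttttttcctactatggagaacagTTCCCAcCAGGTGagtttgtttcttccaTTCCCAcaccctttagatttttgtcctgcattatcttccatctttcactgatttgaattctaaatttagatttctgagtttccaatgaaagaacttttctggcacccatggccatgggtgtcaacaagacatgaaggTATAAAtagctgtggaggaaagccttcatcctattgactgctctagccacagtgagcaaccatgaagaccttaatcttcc
Prss2, chr6:41521526-41521825, plus strand: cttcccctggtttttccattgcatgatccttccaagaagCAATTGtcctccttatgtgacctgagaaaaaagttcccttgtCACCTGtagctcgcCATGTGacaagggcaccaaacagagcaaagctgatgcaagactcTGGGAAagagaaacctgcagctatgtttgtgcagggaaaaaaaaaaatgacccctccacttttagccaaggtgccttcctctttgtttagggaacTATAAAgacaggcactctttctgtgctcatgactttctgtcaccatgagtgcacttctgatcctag
Prss3, chr6:41377564-41377863, minus strand: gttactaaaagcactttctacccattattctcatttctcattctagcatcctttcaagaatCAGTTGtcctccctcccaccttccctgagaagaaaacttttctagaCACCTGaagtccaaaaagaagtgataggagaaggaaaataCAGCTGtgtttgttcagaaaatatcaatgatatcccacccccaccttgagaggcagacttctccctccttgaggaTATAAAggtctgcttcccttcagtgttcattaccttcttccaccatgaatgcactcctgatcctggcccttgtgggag

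A CACCTG E-box, which is 1 form of CANNTG, was found on either strand in 4 of 4 promoters, against 20.2% of the 32851 promoters in the table. TATAAA was present in 4 of 4 against 13.6%, and any CANNTG in 4 of 4 against 72.3%. TGGGAA was present in 2 of 4, 2210010C04Rik and Prss2, against 25.6% of all promoters. GATA was present in 3 of 4 against 57.9%, and CAAGGTC, the core of NR5A2 sites, in 0 of 4 against 3.96%. In 2210010C04Rik the only E-box, CAGGTG at position -188 from the start of the gene, had a copy of the RBPJ core on the other strand 1 base before it and a second copy 15 bases after it. In Prss2 the CACCTG at -169 and the TGGGAA at -111 were separated by 52 bases. The promoters of Prss2, Try4 and Prss3 resembled each other, with 64.9% to 73.8% identical bases over 260 to 282 aligned bases. That of 2210010C04Rik aligned with none of them over more than 24 bases. These matches describe the letters of the window and were not tested for binding.

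The arrays of a pool differed little. Their values correlated at 0.997 to 0.998 across probe sets, and for the trypsin genes the widest gap between the arrays of a pool was 0.15 on the log2 scale, for Prss3 in the vehicle-labelled pool. This spread measures technical error only, and ranges in brackets are over the 4 pairs of arrays of the pools compared. The size rule called a gene higher or lower where the pool means were 1.5-fold apart or more, 0.58 in log2 units, and the arrays of the pools did not overlap. With 1 pool per condition no test of a condition was possible. Acinar markers were present in the cultured buds, with 9 genes at 6.75 to 12.8 in the VEGFR2i-labelled pool and 7.33 to 12.9 in the vehicle-labelled pool. Enteropeptidase, a product of the duodenal lining, was dim in all pools, at 2.91 and 2.98 in the explant pools and 2.84 and 2.81 in the VEGF and control buds. None of 8 markers of T cells, whose receptor locus holds the trypsin genes, met the size rule in either comparison, and their levels lay between 2.96 and 4.33.

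The explant arrays carry trypsin signal and the fresh bud arrays carry almost none. All 6 genes met the size rule between vehicle explants and control buds and were higher in the explants, against 17.9% of all genes. The median difference of the 6 genes was 6.27, beside 0.17 for all genes. The control bud values of the 6 genes lay at the dim end of the array, so each measured difference may understate the true one, and the ranks order measured differences only. By that order Try10, Try5 and Prss3 had ranks 1, 2 and 3 of 19938 genes. They had the same ranks for the VEGFR2i-labelled pool against control buds, where the median of the 6 genes was 5.70. Fresh and cultured buds differed in culture, the 2 days of added time, genotype and pooling together. The fresh and cultured sets may also have been normalized separately, so these are levels set side by side.

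Try10 showed the widest span. It stood at 11.01 and 10.98 on the vehicle explant arrays, against 3.21 and 3.06 on the control bud arrays, a difference of 7.86. Try5 stood at 10.57 and 10.64 on the vehicle explant arrays, against 3.61 and 3.54 on the control bud arrays, a difference of 7.03. Prss3 stood at 9.73 and 9.88 on the vehicle explant arrays, against 2.75 and 2.87 on the control bud arrays, a difference of 6.99. All arrays of cultured buds lay far above all arrays of fresh buds for these genes.

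Prss2, the gene of anionic trypsinogen, stood at 8.77 and 8.77 on the vehicle explant arrays, against 3.27 and 3.18 on the control bud arrays, a difference of 5.54. 2210010C04Rik, the member on the other side of the V segments, stood at 8.37 and 8.36 on the vehicle explant arrays, against 2.93 and 2.92 on the control bud arrays, a difference of 5.44. Try4 had the smallest difference, 3.18, with 6.14 and 6.14 on the vehicle explant arrays against 3.00 and 2.92 on the control bud arrays. Prss2 and 2210010C04Rik had ranks 9 and 11 of 19938 genes, and Try4 rank 67. On the fresh bud arrays the 6 genes lay between percentiles 2.16 and 34.0 of all gene signals, and on the explant arrays between percentiles 50.6 and 99.2. Against control buds, the VEGFR2i-labelled pool had differences of 6.65 for Try10, 6.26 for Try5, 6.10 for Prss3 and 5.31 for Prss2. In that pool 2210010C04Rik (3.90) and Try4 (2.58) stood further down the order, at ranks 23 and 112.

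**Figure D1:**
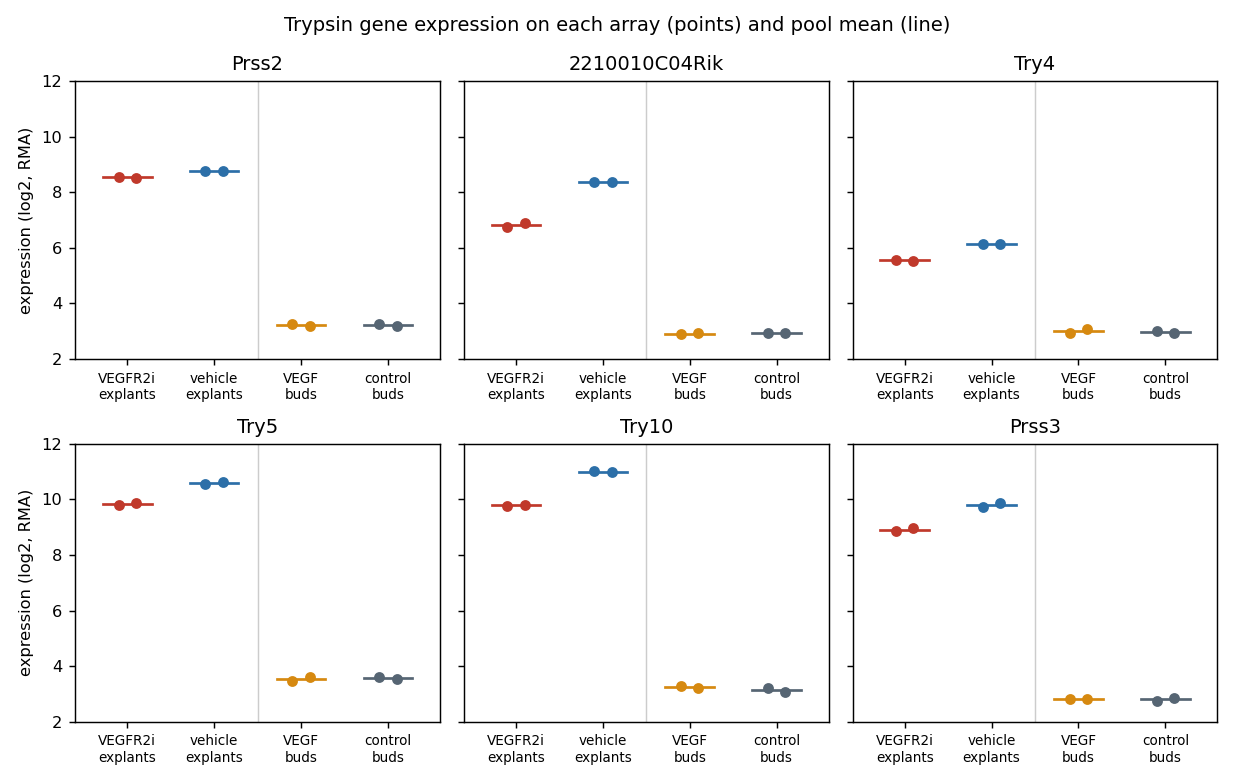
Expression (log2, RMA; vertical axis) of the 6 trypsin genes on each array (points) with the pool mean (line), for VEGFR2i explants, vehicle explants, VEGF buds and control buds from left to right. Explant arrays lie between 5.53 and 11.0 and bud arrays between 2.75 and 3.62, and the VEGFR2i pool mean lies below the vehicle pool mean in each panel.

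**Figure D2:**
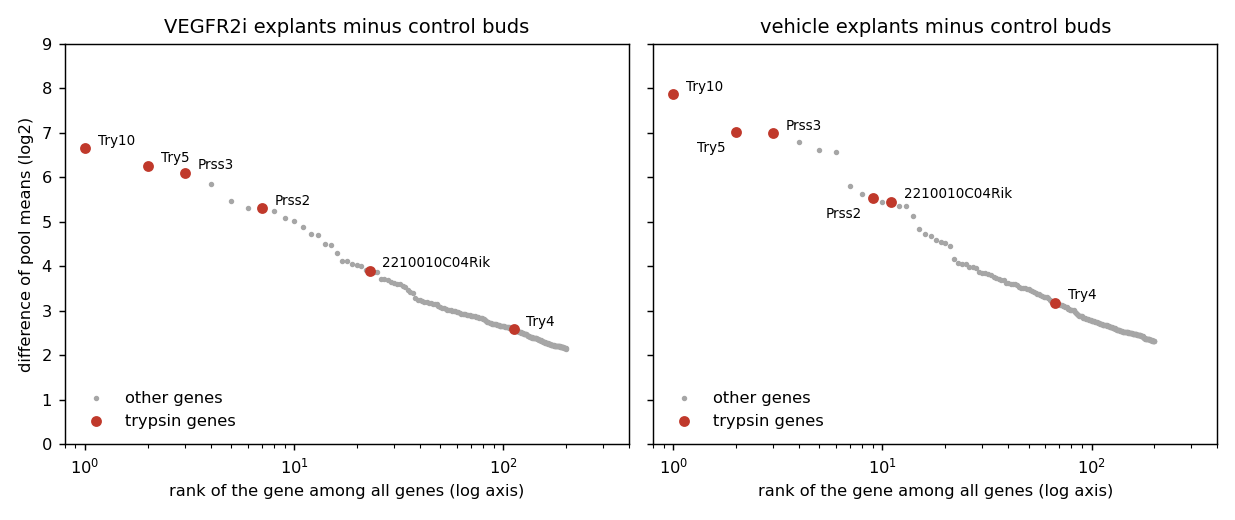
Difference of pool means (log2, vertical axis) between each explant pool and the control buds against the rank of the gene among all 19938 genes (log axis), for the 200 genes with the largest increase. Red points are the trypsin genes, grey points other genes, and Try10, Try5 and Prss3 hold ranks 1, 2 and 3 in both panels.

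The other lists of exocrine genes had smaller medians over control buds than the 6.27 of the trypsin genes in vehicle explants. List medians also take in genes already bright in fresh buds or dim in all pools. The 9 acinar markers had a median of 4.60. The 12 acinar products that trypsin does not activate had 2.41, with a range of 0.18 to 6.57. Cpb1 (6.62), Reg1 (6.57), Cel (5.82) and Serpini2 (5.62) had ranks 5 to 8. Their differences were larger than those of Prss2, 2210010C04Rik and Try4. The proenzymes that trypsin activates lay above control buds by a median of 2.19 in vehicle explants over 11 measured genes, with a range of 0.62 to 6.62. Some of them were already bright in the fresh buds: Cpa1, a carboxypeptidase and early mark of the bud tip, was at 11.7 in control buds, and the chymotrypsinogen gene Ctrb1 was at 8.22. The acinar and tip transcription factors lay above control buds by a median of 1.57 over 9 genes, with a range of -0.09 to 4.83. Rbpjl, the acinar partner of Ptf1a, had the largest difference of that list. A list of 29 other trypsin-like serine proteases, such as Plau, St14 and Hpn, had a median of 0.16.

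The pools of explants were then compared with each other. Endothelial genes in these pools go against the labels: 10 of 10 markers were higher in the VEGFR2i-labelled pool, with a median of 2.86, and Cdh5 stood at 8.66 against 4.56 in the vehicle-labelled pool. The labels were kept as they stand, so the directions below are those of the labels and show nothing about the inhibitor itself. Within that limit, 5 of 6 trypsin genes had lower levels in the VEGFR2i-labelled pool and 0 were higher. Over all genes 0.371% were lower and 1.82% higher. All 6 differences were negative, against 51.8% of all genes, with a median of -0.83 beside -0.00 for all genes.

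2210010C04Rik had the largest difference. It stood at 6.76 and 6.89 in the VEGFR2i-labelled pool, against 8.37 and 8.36 in the vehicle-labelled pool, a difference of -1.54 [-1.62, -1.47], or 34.3% of the vehicle level. This was the second most negative difference among the 19938 genes (rank 2). Try10 stood at 9.77 and 9.79 in the VEGFR2i-labelled pool, against 11.01 and 10.98 in the vehicle-labelled pool, a difference of -1.21 [-1.24, -1.19], or 43.1% of the vehicle level. Its difference had rank 7 from the most negative.

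Prss3 stood at 8.87 and 8.96 in the VEGFR2i-labelled pool, against 9.73 and 9.88 in the vehicle-labelled pool, a difference of -0.89 [-1.01, -0.77]. Try5 stood at 9.79 and 9.88 in the VEGFR2i-labelled pool, against 10.57 and 10.64 in the vehicle-labelled pool, a difference of -0.77 [-0.84, -0.69]. The ranges of Prss3 and Try5 over pairs of arrays overlap, so their differences cannot be ordered beyond array error. Try4 stood at 5.57 and 5.53 in the VEGFR2i-labelled pool, against 6.14 and 6.14 in the vehicle-labelled pool, a difference of -0.60 [-0.61, -0.58] that lay just inside the size rule. Without the second array of the VEGFR2i-labelled pool its difference was -0.578, short of the exact limit of 0.585, which left 4 genes.

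Prss2 was the exception among the 6 genes. It stood at 8.56 and 8.51 in the VEGFR2i-labelled pool, against 8.77 and 8.77 in the vehicle-labelled pool, a difference of -0.24 [-0.27, -0.21], or 84.8% of the vehicle level. Both arrays of the VEGFR2i-labelled pool lay below both of the vehicle-labelled pool, but the size was short of 1.5-fold. Its range did not overlap that of any other trypsin gene, the nearest being Try4. The difference of 2210010C04Rik was more negative than that of Prss2 by -1.31 and that of Try10 by -0.98. The levels of the family in the VEGFR2i-labelled pool therefore ran from 84.8% to 34.3% of the vehicle level, with every trypsin gene read on the same arrays.

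**Figure D3:**
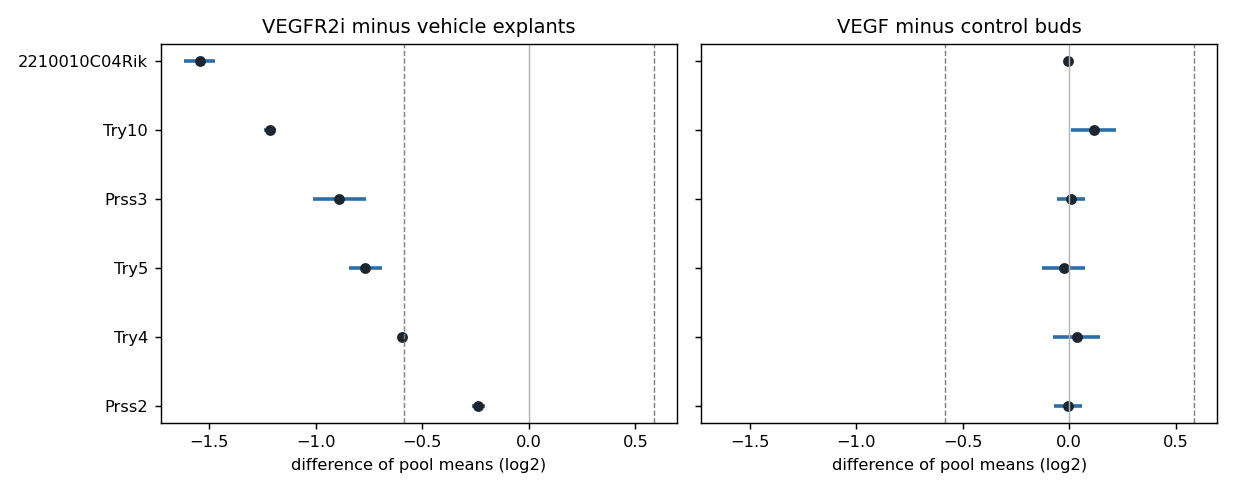
Difference of pool means (log2, horizontal axis) for the 6 trypsin genes, VEGFR2i minus vehicle explants on the left and VEGF minus control buds on the right. Points are differences of means, bars the range over the 4 pairs of arrays (hidden by the point where narrow) and dashed lines the 1.5-fold limits, which 5 genes pass in the explants and 0 in the buds.

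Most proenzymes and other acinar products also had lower values in the VEGFR2i-labelled pool, where 51.8% of all genes had a negative difference. A smaller share of them than of the trypsin genes met the size rule. These shares do not compare like with like, because some of the other genes were dim in both explant pools. Zg16, Reg2, Gp2, Dmbt1 and Cuzd1 had pool means between 3.07 and 3.35 there, while no trypsin gene lay below 5.53. Of 11 measured proenzymes that trypsin activates, 6 were lower in the VEGFR2i-labelled pool, 0 were higher, all 11 differences were negative, and the median was -0.71. The 6 were the carboxypeptidase Cpb1 (8.21 against 9.59, a difference of -1.38), the elastases Cela3b (-1.22), Cela2a (-0.88), Cela1 (-0.75) and Cela3a (-0.71), and the colipase precursor Clps (-0.91). Among 12 acinar products that trypsin does not activate, 4 were lower, 0 higher and 11 differences negative, with a median of -0.37. These were the granule protein Sycn (-1.48), the ribonuclease Rnase1 (-1.32), Reg1 (-1.10) and the amylase Amy1 (-0.67). The differences of Sycn and Cpb1 were more negative than that of any trypsin gene except 2210010C04Rik.

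Of 12 measured genes that activate or restrain trypsin, 10 differences were negative, but most were small, with a median of -0.08. By the size rule 1 was lower in the VEGFR2i-labelled pool and 0 were higher. The lower one was Spink1, the trypsin inhibitor of acinar cells, at 4.85 in the VEGFR2i-labelled pool and 5.81 in the vehicle-labelled pool, a difference of -0.96 [-1.21, -0.71]. Serpini2, a serpin of the exocrine pancreas, was at 8.74 in the VEGFR2i-labelled pool and 9.27 in the vehicle-labelled pool (-0.53), short of the size rule. Cathepsin B (Ctsb), a lysosomal protease that can activate trypsinogen, was at 9.93 in the VEGFR2i-labelled pool and 9.60 in the vehicle-labelled pool (0.33). Ctrc, a chymotrypsin that degrades trypsin in humans, was dim at 4.03 and 4.18 in these pools.

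Of 9 measured acinar and tip transcription factors, 2 were lower and 0 higher, with a median of -0.33. Bhlha15, which shapes the secretory apparatus of acinar cells, was at 7.19 in the VEGFR2i-labelled pool and 8.14 in the vehicle-labelled pool (-0.95). Rbpjl was at 8.08 in the VEGFR2i-labelled pool and 8.80 in the vehicle-labelled pool (-0.72). Ptf1a, which forms the acinar activator complex with Rbpjl, was at 6.75 in the VEGFR2i-labelled pool and 7.33 in the vehicle-labelled pool (-0.579), just short of the limit of 0.585. Among 29 other trypsin-like proteases the plasminogen activators Plau (1.72) and Plat (0.93) were higher, Prss53 (-0.61) was lower, and the median was -0.08.

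**Figure D4:**
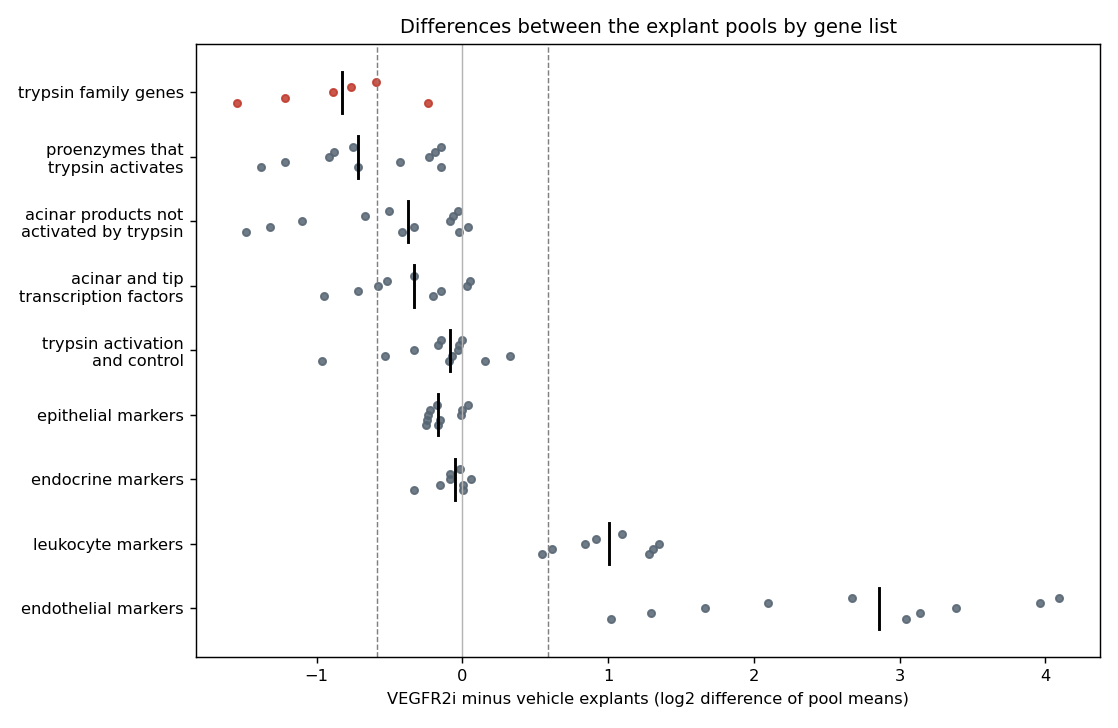
Difference between VEGFR2i and vehicle explants (log2, horizontal axis) for the trypsin genes (red) and for other gene lists (grey), with 1 point per gene, a black line at each list's median and dashed lines at the 1.5-fold limits. Trypsin genes have a median of -0.83, proenzymes that trypsin activates -0.71, epithelial markers -0.17 and endothelial markers 2.86.

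Other cell types differed between the same pools, and their part in the trypsin result was not tested. The log2 levels of the 10 endothelial markers summed to 74.2 and 73.6 on the arrays labelled VEGFR2i, against 47.8 and 47.3 on those labelled vehicle. Of 8 leukocyte markers, 7 were higher in the VEGFR2i-labelled pool, with sums of 50.6 and 49.7 against 41.9 and 42.4 in the vehicle-labelled pool. Of 9 mesenchyme markers, 2 were higher in the VEGFR2i-labelled pool, Pdgfrb (1.15) and Postn (0.75), with sums of 84.1 and 84.0 against 81.1 and 80.9 in the vehicle-labelled pool. Of 7 erythroid markers, 2 were higher, the embryonic globins Hbb-y (2.23) and Hba-x (1.62), with sums of 33.6 and 33.8 against 29.6 and 29.4 in the vehicle-labelled pool. None of 10 epithelial markers met the size rule, their median was -0.17, and their sums were 96.3 and 96.3 in the VEGFR2i-labelled pool and 97.9 and 97.5 in the vehicle-labelled pool. None of 8 endocrine markers met it either, with a median of -0.05. Of 9 acinar markers, several of them named above, 4 were lower and 0 higher. All 9 differences were negative, with a median of -0.58. They ran from -1.38 for Cpb1 to -0.15 for Cpa1, which was at 12.8 in the VEGFR2i-labelled pool and 12.9 in the vehicle-labelled pool. In these whole buds, fewer acinar cells and less trypsin RNA per acinar cell cannot be told apart.

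In the fresh buds, trypsin genes gave no measurable difference between VEGF and control. None of the 6 met the size rule, beside 0.552% of all genes higher and 0.933% lower, and the median difference was 0.00. Differences ran from -0.03 for Try5 to 0.11 [0.01, 0.22] for Try10. Try10 stood at 3.27 and 3.21 in VEGF buds, against 3.21 and 3.06 in control buds. Prss2 stood at 3.24 and 3.20 in VEGF buds, against 3.27 and 3.18 in control buds, and its arrays overlapped. The other 4 genes lay between 2.81 and 3.62 in VEGF buds and between 2.75 and 3.61 in control buds.

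Since all 6 genes lay at the dim end of the array signals in both pools, a lower level in VEGF buds was not detectable here. Some acinar genes that were bright at this stage were lower: Ctrb1 was at 6.15 in VEGF buds and 8.22 in control buds (-2.07), Clps at 5.71 in VEGF buds and 7.58 in control buds (-1.87), and Cpa1 at 10.9 in VEGF buds and 11.7 in control buds (-0.87). These were the 3 of 11 measured proenzymes that were lower, and 0 were higher. Of 12 acinar products that trypsin does not activate, 2 were lower, the lipase genes Pnliprp1 (-1.72) and Cel (-0.89), and 0 were higher. Ambp, whose product holds the inhibitor bikunin, was the only 1 of 12 trypsin activators and inhibitors past the size rule, at 9.29 in VEGF buds and 10.1 in control buds (-0.81). Spink1 was dim, at 2.84 in VEGF buds and 2.94 in control buds. No acinar or tip transcription factor met the size rule, the largest difference being that of Nr5a2 (-0.54), and Ptf1a was at 3.88 in VEGF buds and 3.96 in control buds. Of the marker lists in the same pools, 5 of 10 epithelial and 6 of 8 endocrine markers were lower in VEGF buds, and 3 of 10 endothelial and 6 of 7 erythroid markers were higher, and their part in these acinar differences was not tested.

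Trypsin genes are close relatives, and probes for one may bind RNA of another, so single members are less certain than the family. Between Prss3 and Prss2, the neighbours Gm5771 and Gm5409 had a probe set of their own. Gm5771 was at 6.01 in the VEGFR2i-labelled pool and 7.90 in the vehicle-labelled pool, a difference of -1.89 [-2.14, -1.65] that was larger than that of any of the 6 genes. The pseudogene Gm5409 was at 8.79 in the VEGFR2i-labelled pool and 9.74 in the vehicle-labelled pool, a difference of -0.95 [-1.01, -0.88]. RefSeq lists Gm5409 as a pseudogene, and its signal cannot be separated from that of related RNA. A further 4 probe sets listed several genes of the cluster, 2 of them with a member of the 6 genes among 4 symbols, and stand for no single gene. Their differences between the VEGFR2i-labelled pool and the vehicle-labelled pool lay between -0.93 and -0.76, and between VEGF and control buds between -0.10 and -0.00. Of the other 7 measured genes listed with the cluster only Kel, a blood group antigen gene of red cells, met the size rule in either comparison, at 4.81 in VEGF buds and 3.79 in control buds.

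The genes with the most similar pattern were sought by the distance between values over the 8 arrays after each gene was centred on its own mean, as a description. Try5 and Prss3 were nearest to each other among all genes, at a distance of 0.26 on the log2 scale. Gm5409 followed at 0.53 from Try5 and 0.35 from Prss3, and then Reg1 at 0.80 and 0.67. Try10 was nearest to Try5 (0.92), Prss3 (1.02) and Gm5409 (1.28). Prss2, 2210010C04Rik and Try4 had no trypsin gene among their 3 nearest genes. Those of Prss2 were the insulin gene Ins2 (0.31), the elastase Cela1 (0.75) and Serpini2 (0.77). Ins2 was at 8.50 in the VEGFR2i-labelled pool, 8.83 in the vehicle-labelled pool, 3.37 in VEGF buds and 3.47 in control buds. 2210010C04Rik was nearest to the acinar transcription factor genes Rbpjl (0.90) and Bhlha15 (0.96) and to Nupr1 (1.00), and Try4 to Nup62cl (0.23), the guidance factor gene Ntn1 (0.23) and Rab3d (0.29), a GTPase of secretory granules. The distance was not scaled, so the size of the step from fresh to cultured buds weighs heavily in it. All these points share the same 8 arrays from 4 pools.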

How the data were processed

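RNA pools of cultured and fresh e12.5 pancreatic buds were hybridized to microarrays. The authors deposited 1 log2 value per probe set and array (2.41 to 13.6). Per the series' design text they summarized probes by RMA, using Partek Genomic Suite 6.5. No source used here states which arrays RMA normalized together, and array medians (4.29 to 4.33 in the explants, 4.08 to 4.12 in the buds) do not settle whether the sets compare directly.

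Of 35399 probe sets, 21789 had exactly 1 symbol in the platform annotation, 1621 several and 11989 were unlisted; the single-symbol ones gave 19938 genes. Entrez IDs of all 6 trypsin genes matched RefSeq of GRCm38.p6. Arrays of a pool are 1 replicate, so no test of a condition was made and genes were counted by size. The number of arrays limits precision. The authors' t-test and limma 3.58.1 on arrays, alternatives that measure hybridization error, are among the settings in the closing section. Named genes were the 6 members, in each list up to 4 genes chosen by size of difference, and the 3 genes nearest in pattern. Other named values were chosen after they were seen: the full set of genes past the size rule in some lists, Tmprss15, Ctrc, Ctsb, Spink1 and Ptf1a, and the level of Cdh5. The members and lists were chosen with earlier results of these data known. No protein sequences were used here, and promoters of Try5 and Try10 are not shown. Python 3.11.15, numpy, pandas and scipy 1.17.1 were used.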

Additional observations from a re-analysis of the deposited data

How the results depend on the processing

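With 1.2-fold in place of 1.5-fold, 5 trypsin genes had lower levels in the VEGFR2i-labelled pool, and with 2-fold 2 were (2210010C04Rik and Try10), by the construction of a stricter limit. The methods' t-test on arrays with 1.5-fold called 5 at an unadjusted p under 0.05 and 0 after Benjamini-Hochberg adjustment over all genes, where 1 gene of 19938 passed; limma called 5. In the fresh buds the count was 0 under each of these, including the unadjusted t-test. Centring arrays on their medians left 4 in the explants, without Try4, and quantile normalization left 5. Centring moved the median level difference of vehicle explants over control buds to 6.05. By construction this move is the gap between the array medians of these pools. Quantile normalization moved it to 6.08, and the cause of that move was not tested. Leaving out each array gave 4 to 5 genes and medians of -0.88 to -0.77 in the explants, 0 genes and medians of -0.01 to 0.03 in the buds, and 6.23 to 6.30 for vehicle explants over control buds. Averaging probe sets changes nothing for these genes, each with 1 probe set. Asking for a pool mean of at least 5 kept all 6 genes, though none reached 5 in the fresh buds. Of 24 differences of single genes under centring or quantile normalization, 23 moved by less than the combined SD of the arrays; that of 2210010C04Rik in the buds moved to 0.02 under centring. No paired analysis was possible because each condition is 1 pool and the labels pair no arrays across pools.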
